A study of Rattus norvegicus with 12 samples.

Results

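Calca and Tac1, the genes of the sensory neuropeptides CGRP and substance P, were followed in RNA from the right trigeminal ganglion of female Sprague Dawley rats. They were chosen by Ensembl identifier (ENSRNOG00000011130 for Calca and ENSRNOG00000007374 for Tac1), which makes 2 of the 32545 genes in the files. All 12 libraries come from rats that had carried a capsule implant for 1 week, with 3 libraries in each of 4 groups. The vehicle capsule held 100% cholesterol, and the remaining capsules held estradiol (E2), the principal estrogen of the ovary. The 5% E2 capsule is labelled as a diestrus level (the low-estrogen phase of the rat cycle), 20% E2 as a proestrus level (the phase of the estrogen peak) and 40% E2 as a therapeutic level. The labels give no age, and do not say whether the ovaries were removed. They do not tie each library to an animal of its own, so p-values reflect only how much these samples vary, which may be technical. The series asks how E2 dose and timing alter the pain-promoting effect of serotonin on trigeminal sensory neurons, and these libraries allow the 2 peptide transcripts to be compared across the dose.

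CGRP and substance P are made in the cell bodies of peptidergic nociceptors, stored in dense-core vesicles and released from nerve endings in the face and meninges. CGRP dilates blood vessels through a receptor built from Calcrl and Ramp1, and drugs that block it are used in migraine. Substance P acts on the neurokinin receptor Tacr1 and promotes leakage of plasma from vessels. Calca is spliced into either calcitonin or CGRP messages, with CGRP the main product in sensory neurons, and Tac1 encodes substance P together with neurokinin A. A value per gene does not separate these messages.

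The 250 bases upstream of a RefSeq transcript start of each gene (rat build GRCr8) are shown because an estrogen receptor can act at a promoter. Capitals mark every stretch of at least 8 bases that the 2 windows share on either strand.
Calca (chr1:178317530-178317779, minus strand): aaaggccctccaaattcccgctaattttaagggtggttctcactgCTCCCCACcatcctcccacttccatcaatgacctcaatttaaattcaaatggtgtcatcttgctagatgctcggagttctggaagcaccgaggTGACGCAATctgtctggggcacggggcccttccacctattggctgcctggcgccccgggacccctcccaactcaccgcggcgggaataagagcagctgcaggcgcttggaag
Tac1 (chr4:36645333-36645582, plus strand): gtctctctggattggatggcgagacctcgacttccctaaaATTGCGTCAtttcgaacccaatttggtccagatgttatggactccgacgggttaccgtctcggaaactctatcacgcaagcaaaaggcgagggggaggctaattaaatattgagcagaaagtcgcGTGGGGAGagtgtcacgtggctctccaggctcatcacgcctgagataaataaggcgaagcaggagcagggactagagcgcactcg
The longest stretch in common was TGACGCAAT, 9 bases long, which lies on the sense strand in Calca from 112 bases upstream of the start, and on the opposite strand in Tac1 from 210 bases upstream. On either strand it was found in 0.0926% of the 33469 RefSeq promoter windows of the same length. The other shared stretch, CTCCCCAC, was in 2.99% of them. Both stretches were picked because the 2 windows share them. These percentages therefore do not say how often 2 windows have a stretch in common, which was not tested. The palindromic estrogen response element GGTCANNNTGACC was found in neither window, and in 8 of all the windows. Its half-site GGTCA was found once in Calca, on the opposite strand from 177 bases upstream, and not in Tac1, against 35.4% of all windows that held it on either strand. The cyclic AMP response element TGACGTCA was in neither window and in 1.59% of all windows. These are letter matches only. Transcript models of the same genes start farther upstream, so that 59 bases of the Calca window and 239 of the Tac1 window lie inside the longest annotated gene span.

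Both genes were among the most abundant in the ganglion. The values are FPKM, that is, fragments divided by the length of the gene and by a denominator of each library. Levels of the 2 genes can be compared on this scale. Calca averaged 367 ± 42.9 FPKM (SD, n = 12), which placed it 118th of the 32545 genes, and Tac1 averaged 254 ± 21.0 FPKM, 205th. Calca made up 0.0621% to 0.0920% of a library's summed FPKM and Tac1 0.0489% to 0.0646%. Whole fragments could be recovered from the FPKM values (13281981 to 16978830 per library over all genes). The denominators were near these totals but not equal to them. They were 13421417 against 13559866 in vehicle replicate 2, and 17408221 against 16978830 in vehicle replicate 1. Calca, with a recovered gene model of 1306 bases, rested on 5090 to 9549 fragments a library, and Tac1, with 1178 bases, on 3634 to 6102. Counting error alone was therefore 1.02% to 1.40% of the value for Calca and 1.28% to 1.66% for Tac1. Over the 12 libraries the values varied by a CV of 11.7% for Calca and 8.27% for Tac1. Among the 719 tested genes with a mean of 100 to 1000 FPKM, 81.2% had a smaller within-group SD than Calca (0.16 on the log2(FPKM + 1) scale, median of these genes 0.10), and 58.0% a smaller one than Tac1 (0.11).

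**Figure D1:**
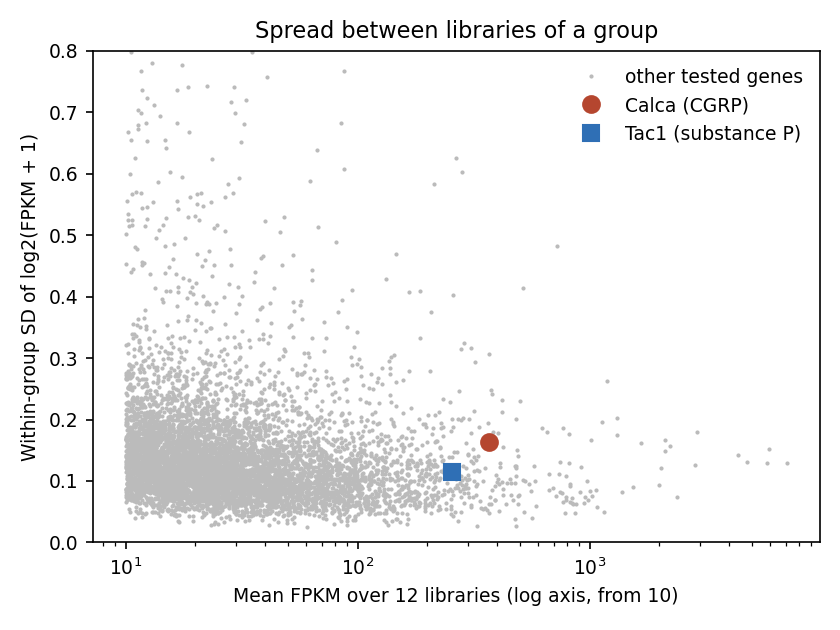
Each grey point is a tested gene with a mean of at least 10 FPKM, with its mean FPKM over the 12 libraries on a log axis and its SD of log2(FPKM + 1) within the 4 groups on the vertical axis (56 of 7252 genes lie above the axis top of 0.8). Calca (red circle, 0.16) sits above and Tac1 (blue square, 0.11) close to the median of 0.10 among genes of 100 to 1000 FPKM.

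Vehicle replicate 1 stood apart from the other libraries (mean root mean square distance 0.497 on the log2(FPKM + 1) scale, against 0.427 to 0.455). It was also the deepest library and had the highest value of both peptide genes, so results against vehicle are given with and without it. The files do not pair identifiers with gene names, so markers of neurons, glia and other cell types, receptors and peptide-processing genes were not analysed here. In whole ganglion RNA, fewer peptidergic neurons and less peptide mRNA per neuron cannot be told apart.

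Calca was highest in vehicle. The 3 vehicle libraries had 420, 388 and 415 FPKM, a mean of 407 ± 17.4 (SD, n = 3). At 5% E2 the values were 383, 279 and 369 FPKM (344 ± 56.3). At 20% E2 they were 373, 377 and 379 FPKM (376 ± 2.77), and at 40% E2 352, 379 and 289 FPKM (340 ± 46.4). All 9 E2 libraries lay below all 3 vehicle libraries, but by little: the lowest vehicle value (388) was 1.19% above the highest E2 value (383), and their exact Poisson intervals for counting error, 378 to 397 and 375 to 392 FPKM, overlap. In 92 of the 14781 genes tested (0.622%) the E2 libraries lay wholly below vehicle in this way. The separation of Calca depends on the FPKM denominators. As a share of recovered fragments, 5% E2 replicate 1 (7652 of 15215750) was above vehicle replicate 2 (6794 of 13559866). The low mean at 5% E2 came mainly from 1 library, replicate 2 (279 FPKM). At 40% E2, replicate 3 was lowest (289 FPKM), and replicate 1 (352 FPKM) was also low, 10th of the 12 libraries. In the 20% E2 group the CV of 0.736% was smaller than the counting error of its libraries (1.09% to 1.23%), so that 3 values so close give no measure of the spread between samples.

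**Figure D2:**
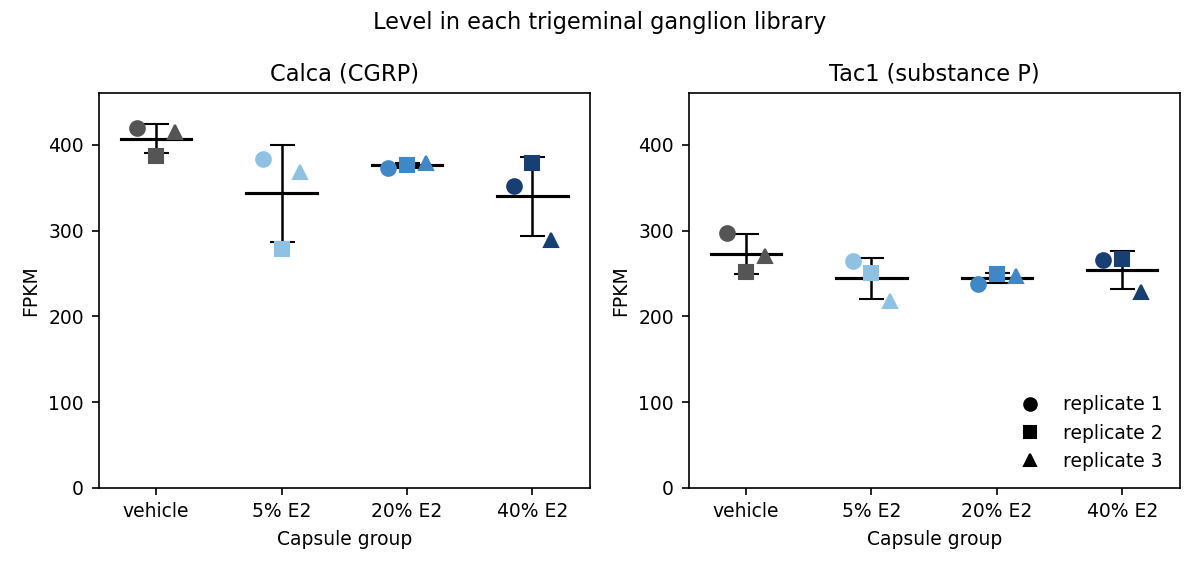
FPKM of Calca (left) and Tac1 (right) in each library by capsule group, with symbols for replicates 1 to 3, horizontal bars for group means and error bars for the SD (n = 3). The vehicle libraries of Calca (388 to 420 FPKM) lie above all 9 E2 libraries (279 to 383), whereas those of Tac1 (252 to 298) overlap with the E2 libraries (218 to 267).

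Calca did not pass the threshold (limma adjusted p under 0.05 over all genes tested) against vehicle at any dose. At 5% E2 the difference in mean log2(FPKM + 1) was −0.26 ± 0.12 (SE), with a 95% confidence interval of −0.52 to 0.0018 and a limma adjusted p of 0.889. At 20% E2 it was −0.11 ± 0.12 (−0.37 to 0.15, adjusted p = 0.903). At 40% E2 it was −0.27 ± 0.12 (−0.53 to −0.0090, adjusted p = 0.842). Without vehicle replicate 1 the differences were −0.24, −0.09 and −0.25. Single E2 libraries moved those at 5% and 40% E2 further, in both directions. At 5% E2 the difference was −0.12 without 5% E2 replicate 2 and −0.34 without 5% E2 replicate 1. At 40% E2 it was −0.16 without 40% E2 replicate 3 and −0.35 without 40% E2 replicate 2. With all 12 libraries, the intervals leave room for a level up to 30.6% lower at 40% E2 and for one up to 10.7% higher at 20% E2. In FPKM, Calca did not overlap with vehicle at any of the 3 doses. Lower non-overlapping values were found in 4.54% of genes at 5% E2, 5.34% at 20% E2 and 5.09% at 40% E2. The 3 comparisons share the vehicle libraries. The two-sided exact permutation p was 0.1 in each, the smallest that 3 against 3 libraries allow. By limma-trend, the background share of all genes passing the threshold was 0% at 5% E2 (5.49% at an unadjusted p under 0.05), 0.00677% at 20% E2 (6.07%) and 0% at 40% E2 (5.87%). Calca itself had an unadjusted limma p of 0.0513 at 5% E2, 0.359 at 20% E2 and 0.0437 at 40% E2. By voom, the count version of limma run on the recovered fragments, 0 genes passed at each dose, with 875, 940 and 847 at an unadjusted p under 0.05.

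When the 9 E2 libraries were set against vehicle as 1 group, Calca averaged 353 ± 40.4 FPKM (SD, n = 9) against 407 ± 17.4 (n = 3). The log2 difference was −0.21 ± 0.10 (SE, 95% interval −0.42 to −0.0013), or 13.7% lower. Its limma adjusted p was 0.738 and its unadjusted limma p 0.0488, a level reached by 6.72% of all genes (0.00677% passed after adjustment). The two-sided exact permutation test over 220 labellings gave p = 0.05, although all 9 E2 libraries were lower than all of vehicle, because 11 of the 220 divisions gave as large a difference of means, 10 of them with the 2 lowest libraries in the group of 3. Without vehicle replicate 1 the log2 difference was −0.19 (exact permutation p = 0.0909), and without 5% E2 replicate 2 it was −0.17 (exact permutation p = 0.0545).

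Tac1 also had its highest mean in vehicle. The vehicle libraries had 298, 252 and 270 FPKM, a mean of 273 ± 23.2 (SD, n = 3). At 5% E2 the values were 265, 250 and 218 FPKM (244 ± 23.6), at 20% E2 238, 249 and 247 FPKM (245 ± 6.09), and at 40% E2 266, 267 and 229 FPKM (254 ± 22.1). Vehicle replicate 2 (252 FPKM) lay below 3 of the 9 E2 libraries. In FPKM, only the 20% E2 group did not overlap with vehicle, as in 5.34% of all genes at that dose. As a share of recovered fragments, 20% E2 replicate 2 (4091 of 13851803) was also above vehicle replicate 2 (3977 of 13559866). No E2 library was above vehicle replicate 1 or 3.

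The log2 differences of Tac1 from vehicle were −0.16 ± 0.09 at 5% E2 (SE, limma adjusted p = 0.904), −0.15 ± 0.09 at 20% E2 (adjusted p = 0.818) and −0.10 ± 0.09 at 40% E2 (adjusted p = 0.885). Exact permutation p-values, two-sided, were 0.2, 0.1 and 0.4. Without vehicle replicate 1 the differences were smaller, −0.10 at 5% E2, −0.09 at 20% E2 and −0.04 at 40% E2. Without 5% E2 replicate 3 the difference at 5% E2 was −0.08, and without 40% E2 replicate 3 that at 40% E2 was −0.03. With all 12 libraries the 95% intervals ran from 21.8% lower to 2.38% higher at 5% E2, from 21.5% lower to 2.83% higher at 20% E2 and from 18.7% lower to 6.46% higher at 40% E2. For the 9 E2 libraries against vehicle the log2 difference was −0.14 ± 0.07 (9.21% lower, 95% interval from 18.7% lower to 1.34% higher), with a limma adjusted p of 0.755 and an exact permutation p of 0.0682. Much of that difference rested on 1 library: without vehicle replicate 1 it was −0.08 (exact permutation p = 0.291). Without vehicle replicate 2 it was −0.20, with an exact permutation p of 0.0364 but a limma adjusted p of 0.538.

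**Figure D3:**
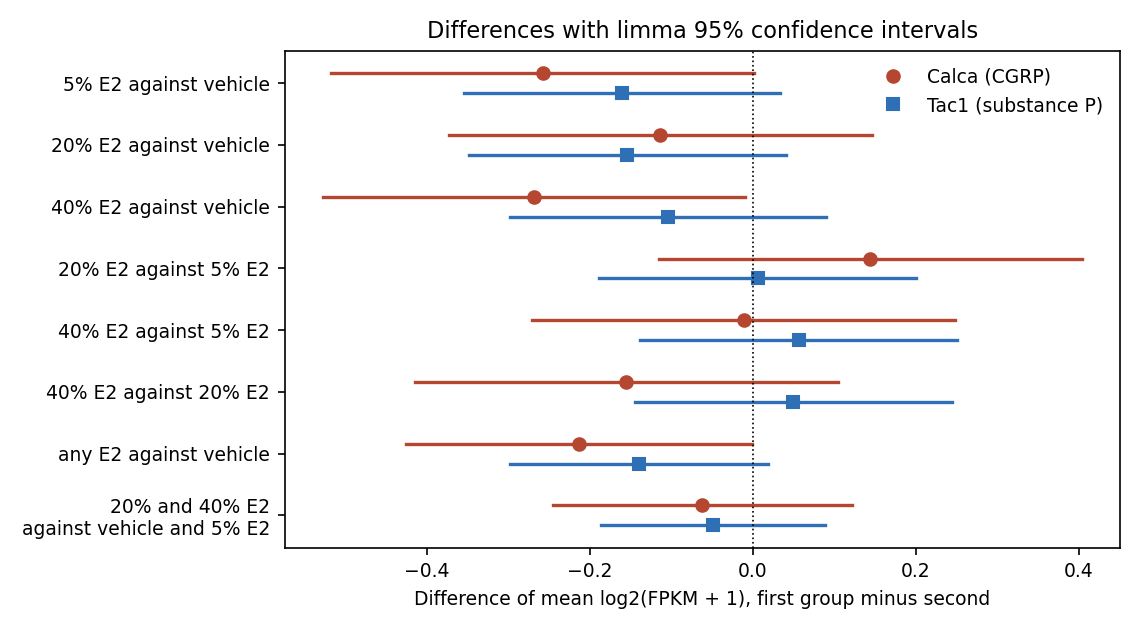
Differences of mean log2(FPKM + 1) of Calca (red circles) and Tac1 (blue squares) in 8 comparisons, first group minus second, with 95% confidence intervals from the limma fit of all 12 libraries. All points against vehicle alone lie below 0, from −0.27 to −0.10, and the intervals of Calca at 40% E2 (−0.53 to −0.0090) and over any E2 (−0.42 to −0.0013) end just below 0.

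The doses could not be told apart for either gene. By mean level, the order for Calca was vehicle, 20% E2, 5% E2 and 40% E2. For Tac1 it was vehicle, 40% E2, 20% E2 and 5% E2. The E2 groups were thus ordered differently for the 2 genes, and with vehicle included neither order followed the dose. Among the E2 groups alone, the Tac1 means rose with the dose (244, 245 and 254 FPKM). The limma 95% interval of the difference included 0 for each pair of neighbours in the orders with vehicle. Calca at 20% E2 was 0.14 ± 0.12 above 5% E2 on the log2 scale (SE, limma adjusted p = 0.975), with an interval from 7.66% lower to 32.3% higher. That difference was 0.0018 without 5% E2 replicate 2 and 0.23 without 5% E2 replicate 1. At 40% E2 Calca differed from 5% E2 by −0.01 ± 0.12 (adjusted p = 0.998) and from 20% E2 by −0.16 ± 0.12 (adjusted p = 1), or by −0.04 from 20% E2 without 40% E2 replicate 3 and by −0.24 without 40% E2 replicate 2. Tac1 at 20% E2 differed from 5% E2 by 0.0063 ± 0.09 (adjusted p = 0.999), with an interval from 12.2% lower to 14.9% higher. At 40% E2 it differed by 0.06 ± 0.09 from 5% E2 (adjusted p = 0.979) and by 0.05 ± 0.09 from 20% E2 (adjusted p = 1). Of all genes, 0% passed between 20% and 5% E2 (662 at an unadjusted limma p under 0.05, and by voom 0 passed and 649 had such a p), and 0.00677% in each of the other 2 dose pairs.

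Grouping the 2 higher doses against vehicle and 5% E2 gave log2 differences of −0.06 ± 0.08 for Calca (SE, limma adjusted p = 0.904, exact permutation p = 0.532) and −0.05 ± 0.06 for Tac1 (adjusted p = 0.902, exact permutation p = 0.494), where 0.00677% of all genes passed. Along the dose (0, 5, 20 and 40%), the slope for each 10 percentage points of E2 was −0.04 ± 0.03 for Calca (limma adjusted p = 0.871, exact permutation p = 0.249) and −0.01 ± 0.02 for Tac1 (adjusted p = 0.943, exact permutation p = 0.584). No difference among the 4 groups passed, with a moderated limma F of 2.32 for Calca and 1.39 for Tac1 (adjusted p = 0.964 for each). The exact permutation test used the ordinary F of each gene alone, which was 1.84 for Calca (p = 0.162) and 1.26 for Tac1 (p = 0.349). Over all genes 0% passed the slope and 0% the F-test by limma-trend, with 881 and 708 genes at an unadjusted p under 0.05, and voom called 0 and 1. The Calca slope depended on single low libraries. Without 5% E2 replicate 2 it was −0.06, with an exact permutation p of 0.00265 and a limma adjusted p of 0.757. Without 40% E2 replicate 3 it was −0.01 (exact permutation p = 0.720).

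The 2 peptide genes were only loosely tied from library to library. Over the 12 libraries, log2(FPKM + 1) of Calca and Tac1 had a Pearson r of 0.487 (permutation p = 0.112) and a Spearman rho of 0.657 (permutation p = 0.0240). With Benjamini-Hochberg adjustment over the 4 relations computed these became 0.425 and 0.0960. Leaving out 5% E2 replicate 2 and 40% E2 replicate 3, the libraries farthest from the Calca median, gave an r of 0.583 (permutation p = 0.0763, n = 10). On deviations from the group means r was 0.372 (permutation p = 0.234). Both genes were highest in vehicle replicate 1 and low in 40% E2 replicate 3, 11th of 12 for each. They parted at 5% E2, where replicate 2 was lowest for Calca but 7th for Tac1, and replicate 3 was lowest for Tac1 but 9th for Calca. With the number of recovered fragments, Calca had an r of 0.256 (permutation p = 0.429) and a rho of 0.455 (permutation p = 0.144). Tac1 had an r of 0.316 (permutation p = 0.319) and a rho of 0.364 (permutation p = 0.248). Without 20% E2 replicate 3 and vehicle replicate 1, the depths farthest from the median, these r were 0.0632 and 0.114. With 12 libraries these values do not show that a relation is absent. Depth was also uneven between groups. It was 13559866 to 16978830 fragments in vehicle, 15215750 to 16121001 at 5% E2, 13320156 to 16900117 at 20% E2 and 13281981 to 13801881 at 40% E2.

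**Figure D4:**
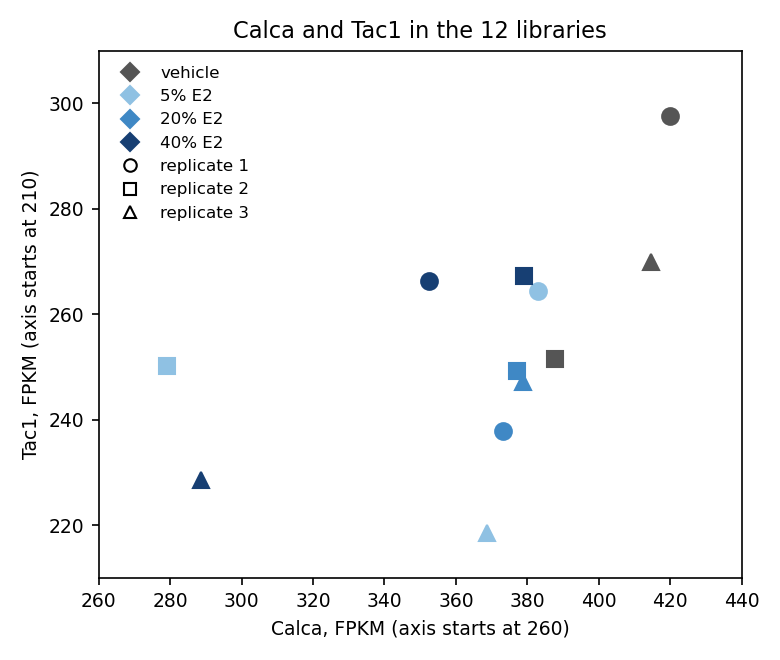
FPKM of Calca (horizontal, axis from 260) against FPKM of Tac1 (vertical, axis from 210) in each of the 12 libraries, with colours for the groups and symbols for the replicates. Vehicle replicate 1 (420 and 298 FPKM) is at the upper right, and 5% E2 replicate 2 (279 and 250) and 40% E2 replicate 3 (289 and 229) lie apart at the left.

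The level of Tac1 relative to Calca, a ratio within each library that does not depend on its depth, was 0.699 ± 0.0824 (SD, n = 12). It was 0.708, 0.649 and 0.651 in vehicle, 0.691, 0.897 and 0.592 at 5% E2, 0.637, 0.661 and 0.653 at 20% E2, and 0.756, 0.705 and 0.792 at 40% E2. The widest range was at 5% E2, which held both the highest and the lowest ratio of all 12 libraries. The 40% E2 mean of 0.751 ± 0.0435 (SD, n = 3) was the highest and the 20% E2 mean of 0.650 ± 0.0122 the lowest. Over the 4 groups the ordinary F was 1.00, with an exact permutation p of 0.456. Leaving out single libraries moved this F from 0.575 without 40% E2 replicate 3 (exact permutation p = 0.703) to 4.16 without 5% E2 replicate 2 (exact permutation p = 0.0554), and it was 3.18 without 5% E2 replicate 3 (exact permutation p = 0.0823).

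Other genes followed each peptide gene more closely than the other peptide gene did. Among 9926 genes with a mean of at least 5 FPKM, Tac1 was 909th in Pearson r with Calca over the 12 libraries, and Calca was 1420th in r with Tac1. For Calca the closest were ENSRNOG00000017847 (r = 0.936, 14.4 to 25.3 FPKM) and ENSRNOG00000013972 (r = 0.897, 30.6 to 39.1 FPKM). The first of these was likewise lowest in 5% E2 replicate 2 (14.4 FPKM), next lowest in 40% E2 replicate 3 (16.4 FPKM) and highest in vehicle replicate 1 (25.3 FPKM). For Tac1 the closest were ENSRNOG00000020938 (r = 0.905, 17.6 to 23.9 FPKM) and ENSRNOG00000060098 (r = 0.902, 209 to 312 FPKM), both lowest in 5% E2 replicate 3 and highest in vehicle replicate 1. An r above 0.8 was found for 23 genes with Calca and 75 with Tac1, an r under −0.8 for 20 and 99, and the 5 closest genes of each had none in common. These correlations are a description of 12 libraries that share their groups and depth, taken from the top of many.

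Neither gene overlaps another annotated gene in RefSeq GRCr8. Calca lies next to Calcb, the gene of the second CGRP form, whose coding sequence is closely alike. How fragments that match both were counted is not given in the sources used here, so the Calca values may include some from Calcb.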

How the data were processed

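Total RNA of 12 right trigeminal ganglion samples was sequenced after library preparation with the NEBNext Ultra kit, per the labels' protocols. Per the submitters' processing notes, the tools were fastp, HISAT2, featureCounts, DESeq2 and CASAVA; their versions and roles, the genome build, the annotation and the strand setting were not given in the sources used here. The deposited values are FPKM computed by the authors, 1 file per sample, per the names of the deposited files. A table of the whole series repeats these values under a shifted header and was not used.

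Genes with at least 1 FPKM in at least 3 libraries (14781 of 32545) were fitted as log2(FPKM + 1) with limma 3.58.1 (trend, robust moderation, R 4.3.3). All 12 libraries entered 1 fit of the 4 group means, the dose slope was a separate fit, and p-values were adjusted by Benjamini-Hochberg over all genes within each comparison (threshold 0.05). Beside this stand 21 exact permutation tests of single values (Python 3.11.15, scipy 1.17.1), two-sided except for the F statistics, which use the upper tail. These p-values are not adjusted. Each correlation used 100000 permutations.

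Fragments were recovered from the FPKM values as whole numbers over the gene length and a denominator of each library. This gave whole numbers for each of the 21071 genes detected in 2 or more libraries, within 8.87e-05 fragments. Lengths are the smallest that fit. Replicates of a group differed by more than sampling noise (chi-square at least 7.28 times its degrees of freedom). Each counted once, although this does not show that they came from different animals. The recovery and the fit were tested on simulated data.

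Alternatives were a pseudocount of 0.1, no filter, median-of-ratios scaling, voom on recovered fragments, a replicate block, only the 2 groups compared, and each library left out. The median-of-ratios factors were 1.0037 to 1.0067 in all 12 libraries, and voom took the FPKM denominators as library sizes. Neither therefore tests the scaling of the deposited values, and scaling by recovered fragments was not tried. The genes named are Calca, Tac1 and those of highest Pearson r with each (mean of at least 5 FPKM), of which 2 each are given. Planned lists of receptors, peptide-processing genes and cell type markers needed gene symbols, and the reference table of 47357 genes paired none of the identifiers with a symbol (0 of 32545), so they were not analysed here. The members and lists were chosen with earlier results of these data known.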

Additional observations from a re-analysis of the deposited data

How the results depend on the processing

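Under the alternatives none of the 20 limma results of the 2 genes passed the threshold (352 refits, smallest adjusted p 0.538). Refits of the F statistic have no direction to keep. In the other refits the direction was kept in all but 9, each a difference or slope near 0 with 1 library left out. With single libraries left out, Calca at 40% against 5% E2 ranged from −0.15 to 0.10, Tac1 at 20% against 5% E2 from −0.0721 to 0.0654, Tac1 at 40% against 5% E2 from −0.0220 to 0.13, and the Tac1 slope from −0.0250 to 0.0014 (also by the exact test). By exact permutation test, leaving out single libraries moved the ordinary F of Calca (1.84 with all libraries) from 1.16 to 2.78 (p 0.0419 to 0.316), the Calca slope from −0.0593 to −0.0132 (p 0.00265 to 0.720) and Tac1 under any E2 from −0.20 to −0.0759 (p 0.0364 to 0.291). It moved the correlation of Calca with Tac1 from 0.346 to 0.613 (permutation p 0.0467 to 0.269), and in each case the cause was not tested. The Calca F, its slope and the correlation were past 0.05 only without 5% E2 replicate 2. With the replicate block, Calca under any E2 differed by −0.21 (limma adjusted p = 0.681) and Tac1 by −0.14 (adjusted p = 0.681), and the block changed no call. The labels do not say that equal numbers share an animal or day, and deviations of same-numbered libraries had correlations of −0.05 to 0.08 over genes. With 3 libraries a group, the 95% interval of a dose against vehicle reached 0.26 to either side of the Calca estimate on the log2 scale and 0.19 for Tac1, which limits what could be seen here.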
